A study of Homo sapiens with 9 samples.

Results

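Iron uptake and storage genes were followed in Y79 cells, a human retinoblastoma line, given gold particles with and without a peptide. The set held 10 genes, TFRC, FTH1, FTL, SLC40A1, SLC11A2, IREB2, ACO1, FBXL5, NCOA4 and STEAP3. They were chosen by name for their part in iron handling after TFRC had been seen to lie lower with bare particles, so values from bare particle against untreated arrays are described here and no test of a member is read from them. The set held 8 genes with at least 1 probe set annotated to that symbol alone, 29 probe sets in all, of 18132 genes with 44988 such probe sets on the array. FTH1 and IREB2 were not analysed here.

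Affymetrix PrimeView arrays were run on 9 samples, 3 in each group. One group was left untreated (Control), another was given bare gold nanoparticles (GNPs), and the third was given gold nanoparticles conjugated with an HDM2 peptide (GNPs-HDM2, called the conjugate). All cells were Y79 in RPMI medium by the cell line and growth fields, although another field of both treated groups writes Y97. The sources used here do not give dose, time or the culture behind each array. Errors and p-values therefore cover the spread between these arrays, which may be technical.

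A cell takes up most iron as transferrin, which binds the transferrin receptor and is carried into endosomes. There the iron is reduced and pumped to the cytosol, where it is used, stored in ferritin or exported. When iron is scarce, iron regulatory proteins bind hairpins called iron-responsive elements, which protects the mRNA of the receptor and blocks translation of ferritin mRNA. When iron is plentiful the receptor mRNA is broken down and ferritin is translated, so a change in ferritin protein need not show as a change in ferritin mRNA. Arrays measure mRNA, and neither iron nor protein was measured in these files.

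The values are log2 values, by assumption of base, measured from a baseline that each probe set has of its own. They carry no absolute level, so levels of different genes are not compared. The step size of the stored numbers still sorts probe sets by the level of their baseline into 14021 dim, 24837 middle and 9292 bright ones. Conjugate arrays stood apart from the others in a way that followed this level. Dim probe sets had a median difference from untreated arrays of 0.49, middle ones of 0.24 and bright ones of -1.15. With bare particles the medians were -0.09, -0.06 and 0.08. Hybridization control transcripts averaged -0.38 on untreated, -0.12 on bare particle and 1.68 on conjugate arrays. In the same order, poly-A controls averaged -0.62, -0.19 and 1.28, and background probe sets -0.01, -0.09 and 0.52. Probe sets of 18S ribosomal RNA averaged -0.26, 0.13 and -2.38. The median SD within a group was 0.181 for untreated, 0.116 for bare particle and 0.474 for conjugate arrays. Differences and counts of iron genes with the conjugate are therefore also given after every array was centred on its own median within each class of level, called level-centred below, and the part of the shift in any result was not tested. Of 10 photoreceptor and retinoblastoma markers, 4 had a bright probe set (CRX, OTX2, PDE6H and MYCN) and the other 6 a middle one. With the conjugate 6 of these 10 were lower and none higher, and their summed value ran from 3.91 to 8.59 on untreated, 7.46 to 8.46 on bare particle and -7.62 to -0.38 on conjugate arrays. Of 5 macrophage and 5 fibroblast markers none had a bright probe set, and 2 and 3 of them were higher with the conjugate, while of 4 erythroid and 5 hepatocyte markers, 3 and 2 were higher and none lower. The part of these markers in the results was not tested, and in bulk RNA fewer cells of a type and less RNA per cell cannot be told apart.

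Against untreated arrays, 5 of the 8 genes fell with the conjugate and none rose. They were TFRC, FTL, ACO1, FBXL5 and NCOA4, at limma adjusted p under 0.05 over all 18132 genes. Of all genes 25.1% fell and 33.1% rose by the same rule. The median difference of the 8 genes was -0.64, beside 0.25 over all genes. Level-centred, 4 fell, namely TFRC, ACO1, FBXL5 and SLC11A2, beside 21.6% of all genes falling and 22.6% rising, and the median was -0.36 beside 0.06. In the same 5 genes as deposited, all 3 conjugate values lay below all 3 untreated values, which held for 23.9% of all genes. TFRC is part of these counts and medians, and its untreated values also led to the choice of the set. The counts are therefore not free of that choice, and this holds for the counts by probe set below.

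**Figure D1:**
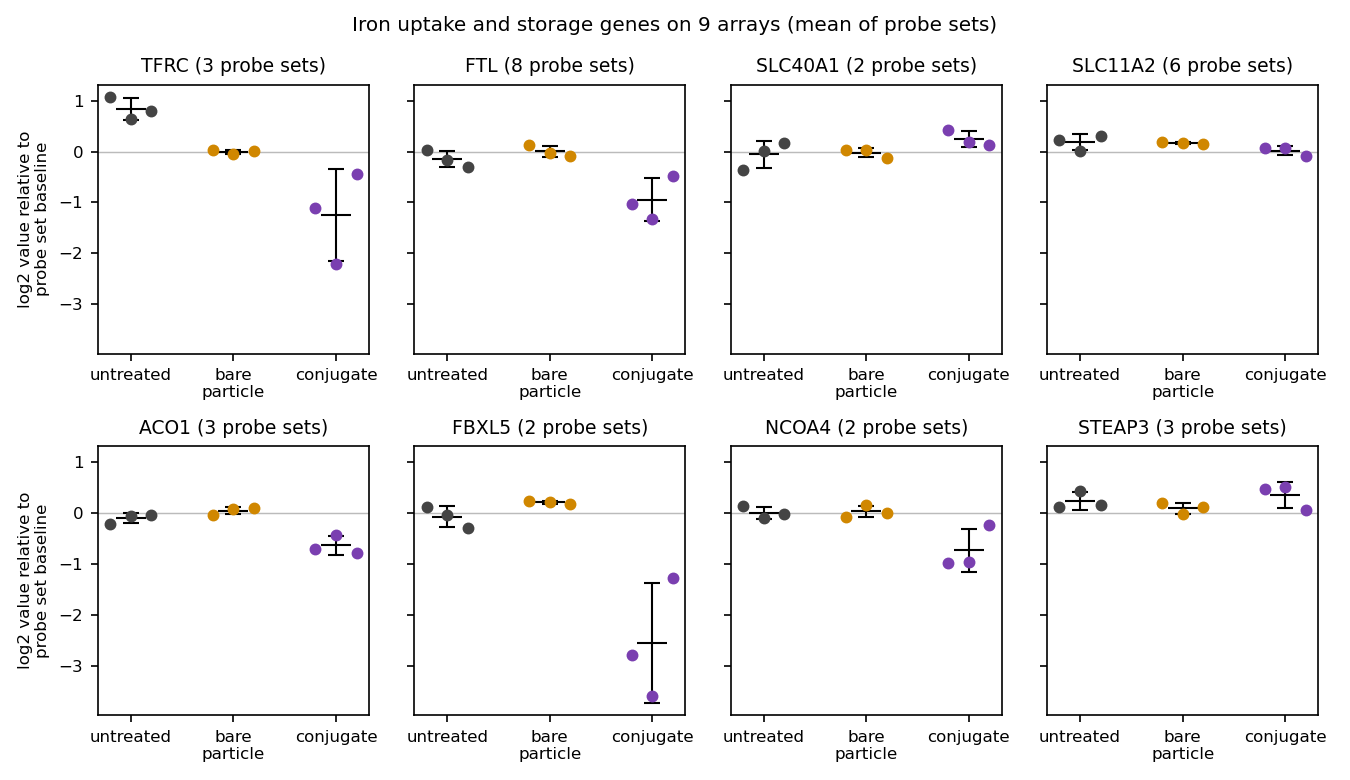
Log2 values relative to the probe set baseline (vertical axis) of the 8 measured genes on each array, by group, each dot 1 array and the mean of the gene's probe sets, with the group mean and SD (n = 3) as bars. TFRC drops in steps from untreated (0.65 to 1.08) to bare particle (-0.05 to 0.04) and conjugate arrays (-2.22 to -0.43), while FTL, ACO1, FBXL5 and NCOA4 are lower on conjugate arrays alone.

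TFRC codes for the transferrin receptor, the main gate for iron into dividing cells. Its gene values were 1.08, 0.65 and 0.79 on untreated, 0.04, -0.05 and 0.01 on bare particle and -1.10, -2.22 and -0.43 on conjugate arrays. The 3 groups did not overlap, in the order untreated, bare particle, conjugate. With bare particles TFRC lay lower by 0.84 on the log2 scale, with a standard error of 0.36, or 1.79-fold. This is the value that led to the choice of these genes. The error pools all 3 groups, whose SDs were 0.22 for untreated, 0.04 for bare particle and 0.90 for conjugate arrays.

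With the conjugate, TFRC fell by 2.09 against untreated arrays (standard error 0.36, n = 3 in each group). This is 4.26-fold, with a limma adjusted p of 0.00294. This comparison shares its untreated arrays with the one that led to the choice. Level-centred the fall was 1.41 (limma adjusted p = 0.00198), and the call held in each of 16 alternative settings, with differences from -2.86 to -1.41 and limma adjusted p from 4.3e-05 to 0.017. Against bare particle arrays TFRC fell by 1.25 (error 0.36, limma adjusted p = 0.0125). Level-centring gave -0.53 with no call (adjusted p = 0.0739), and leaving out conjugate replicate 2 gave -0.76 with a call (adjusted p = 0.015).

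The TFRC promoter is shown because TFRC is the gene the set was built on, and that of FBXL5 because it fell furthest. Both are the 250 bases before the start in RefSeq's table for GRCh38.p14, on the minus strand, with ACGTG on either strand in capitals. This is the core of sites bound by hypoxia-inducible factors and, as CACGTG, of the E-box that MYC family proteins bind. The TFRC window is chr3:196082091-196082340 and the FBXL5 window is chr4:15655358-15655607.
TFRC: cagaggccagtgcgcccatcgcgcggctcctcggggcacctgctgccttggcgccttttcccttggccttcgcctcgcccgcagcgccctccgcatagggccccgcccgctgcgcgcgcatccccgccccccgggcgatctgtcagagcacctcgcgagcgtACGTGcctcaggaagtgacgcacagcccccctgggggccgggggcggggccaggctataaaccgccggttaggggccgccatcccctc
FBXL5: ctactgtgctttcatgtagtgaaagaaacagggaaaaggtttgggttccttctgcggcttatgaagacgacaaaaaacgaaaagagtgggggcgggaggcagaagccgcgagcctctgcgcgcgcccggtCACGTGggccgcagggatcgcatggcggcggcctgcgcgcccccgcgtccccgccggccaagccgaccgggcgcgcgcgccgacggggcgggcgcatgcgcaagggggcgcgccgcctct

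ACGTG starts 88 bases before the TFRC start. In FBXL5 it lies on both strands as a single CACGTG. Among all windows and members, ACGTG was found upstream of 3 of the 8 genes, TFRC, FTL and FBXL5, and in 18.5% of 35116 such windows. CACGTG was found upstream of FBXL5 alone of the 8, and in 6.34% of windows. The letters TGACNNNGC, the core of the antioxidant response element, were found upstream of FBXL5 alone of the 8, and in 10.9% of windows. A gene was counted if any of its windows matched, while the shares are of single windows. Counts and shares are therefore not on the same scale, and no excess is read from them. A match is a run of letters, and binding was not measured.

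The TFRC probe sets did not move together. Probe set 11715477_at (bright) read 1.92, 1.03 and 1.18 on untreated, 0.20, 0.19 and 0.07 on bare particle and -2.24, -4.09 and -0.87 on conjugate arrays. Probe set 11756156_s_at (bright) read 1.56, 0.92 and 0.92, then 0.00, 0.03 and 0.00, then -2.00, -2.56 and -0.63. In both, the groups were fully apart in the same order, and the bare particle values lay 1.22 and 1.12 below the untreated ones. The 11715478_a_at probe set (middle) read -0.23, 0.00 and 0.28, then -0.09, -0.37 and -0.05, then 0.93, 0.00 and 0.20. Its untreated values overlapped both other groups. All its conjugate values lay above all its bare particle values, opposite to the bright probe sets, by 0.55 with no call (limma adjusted p = 0.089). Against untreated arrays the bright probe sets differed by -3.77 (error 0.63, limma adjusted p = 0.00273) and -2.86 (error 0.42, adjusted p = 0.00166), and by -2.66 and -1.75 level-centred, each with a call. For 11715478_a_at the difference was 0.36 with an error of 0.26 and no call (limma adjusted p = 0.261). As a mean of all 3, the gene value is therefore nearer to 0 than either bright probe set.

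**Figure D2:**
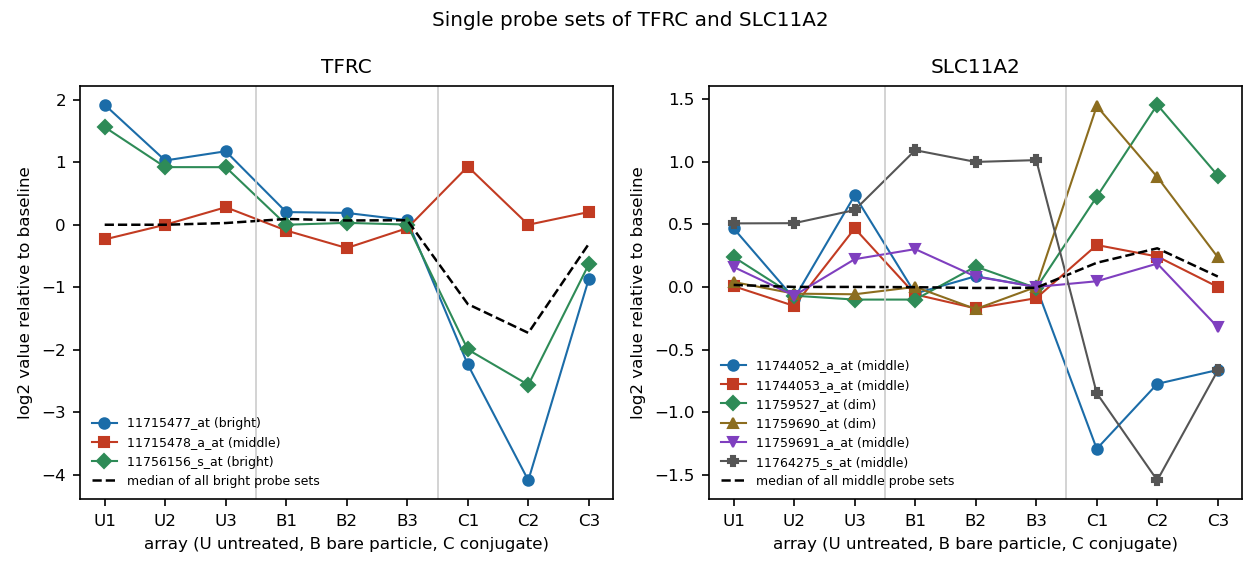
Log2 values relative to baseline (vertical axis) of single probe sets of TFRC (left) and SLC11A2 (right) on the 9 arrays (horizontal axis), with the median of all bright or middle probe sets dashed. On the left 2 TFRC probe sets fall below the dashed line on conjugate arrays and lie near it on bare particle arrays, and on the right the 6 SLC11A2 probe sets spread to both sides.

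STEAP3 codes for the reductase that acts on iron in the endosome of transferrin uptake. Its values were 0.12, 0.44 and 0.16 on untreated, 0.20, -0.01 and 0.11 on bare particle and 0.47, 0.52 and 0.07 on conjugate arrays, and the groups overlapped. The conjugate difference was 0.11 with an error of 0.18 (limma adjusted p = 0.579), and level-centring turned it to -0.26 without a call (adjusted p = 0.135). One of its 3 probe sets, 11722678_a_at, fell by 0.59 (limma adjusted p = 0.0356), and the other two, both dim, stood at 0.45 and 0.48 with no call. On bare particle arrays 11722678_a_at also lay lower, from 0.09 to 0.21 against 0.45 to 0.79 on untreated arrays.

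SLC11A2 codes for DMT1, the transporter that moves iron out of the endosome. As a gene its values were 0.24, 0.01 and 0.31 on untreated, 0.20, 0.16 and 0.15 on bare particle and 0.07, 0.07 and -0.09 on conjugate arrays. The conjugate difference from untreated arrays was -0.17 with an error of 0.15 and no call (limma adjusted p = 0.322), while the level-centred value of -0.45 was called (adjusted p = 0.0163). Behind that mean, 2 of its 6 probe sets fell and 2 rose.

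Probe set 11764275_s_at of SLC11A2 (middle) read 0.51, 0.51 and 0.61 on untreated, 1.09, 0.997 and 1.01 on bare particle and -0.85, -1.54 and -0.67 on conjugate arrays. Its 3 groups did not overlap, with bare particle arrays highest by 0.49 and conjugate arrays lowest. Against untreated arrays it fell by 1.56 with the conjugate (error 0.23, limma adjusted p = 0.00185), with -1.75 level-centred. The 11744052_a_at probe set fell by 1.28 (limma adjusted p = 0.0049) and by 1.47 level-centred. Both dim probe sets, 11759527_at and 11759690_at, rose by 0.997 and 0.88 (adjusted p = 0.00806 and 0.0261), and neither was called level-centred. SLC11A2 is transcribed as several isoforms, with and without an iron-responsive element, and which of them each probe set reads was not analysed here.

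FTL codes for the light chain of ferritin, the shell that stores iron. Its values were 0.02, -0.16 and -0.30 on untreated, 0.13, -0.02 and -0.08 on bare particle and -1.03, -1.33 and -0.48 on conjugate arrays. Conjugate arrays lay below all others, and the other groups overlapped. The fall against untreated arrays was 0.80 (error 0.22, 1.74-fold, limma adjusted p = 0.0129). Level-centring turned it to 0.32 with no call (adjusted p = 0.155), and quantile normalization gave -0.03 with no call (adjusted p = 0.942). Of its 8 probe sets 7 are bright, the class whose median was -1.15. With bare particles FTL differed by 0.15 with an error of 0.22. All 8 probe sets of FTL carry the _s_at or _x_at suffix of probes that can match other transcripts, and ferritin has many processed copies in the genome, so the share of each copy is uncertain. They agreed in size, from -0.95 to -0.51, and 7 of 8 fell.

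The hairpin that holds back ferritin translation starts within the first 50 transcribed bases of FTL. It is shown because it is the part of a member through which iron regulatory proteins act. These are bases 24 to 50 of the transcript, chr19:48965332-48965358 on the plus strand of GRCh38.p14 from RefSeq's table, with the loop in capitals.
FTL: tgtctcttgcttcaaCAGTGTttggac

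The letters CNNNNNCAGTGN on the transcribed strand, a bulged C and the loop, were found within 50 bases of the start in 1.67% of 35116 windows. Of the 8 genes they were found in FTL alone, where a gene counted if any of its windows matched. Elements that lie further in, such as those at the far end of the TFRC mRNA, are outside this window.

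NCOA4 codes for the receptor that carries ferritin to the lysosome, where its iron is released. Its values were 0.13, -0.09 and -0.02 on untreated, -0.07, 0.16 and 0.01 on bare particle and -0.97, -0.97 and -0.24 on conjugate arrays. Conjugate arrays were lowest, with no overlap, and the gene fell by 0.74 (error 0.21, limma adjusted p = 0.0161). The call ended level-centred (-0.27, adjusted p = 0.123), in quantile-normalized values (-0.28, adjusted p = 0.350), in a fit of only the groups compared (adjusted p = 0.0524), without untreated replicate 1 (-0.67, adjusted p = 0.0505) and without conjugate replicate 1 (-0.61, adjusted p = 0.0578). The fall sat in the bright probe set 11734970_s_at (-1.17, limma adjusted p = 0.0158), whose level-centred value was -0.06, and the middle 11758053_s_at stood at -0.30 with no call.

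SLC40A1 codes for ferroportin, the iron exporter. It read -0.35, 0.02 and 0.17 on untreated, 0.03, 0.03 and -0.12 on bare particle and 0.42, 0.19 and 0.13 on conjugate arrays. The untreated arrays were the most spread and overlapped both other groups. The conjugate difference of 0.30 with an error of 0.18 was not called (limma adjusted p = 0.158), and the level-centred value was -0.03. The middle probe set 11715788_a_at rose by 0.56 (limma adjusted p = 0.0474), with no call level-centred, and the dim 11715789_a_at stood at 0.03.

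FBXL5 codes for the iron-sensing part of a ubiquitin ligase that marks iron regulatory proteins for breakdown. Its values were 0.12, -0.03 and -0.29 on untreated, 0.24, 0.21 and 0.18 on bare particle and -2.80, -3.59 and -1.27 on conjugate arrays. The conjugate arrays lay far below both other groups, and replicate 3 was the least low of them, as in TFRC, FTL and NCOA4. FBXL5 fell by 2.49 (error 0.46, 5.60-fold, limma adjusted p = 0.00352), the deepest fall of the 8 genes, and by 1.38 level-centred (adjusted p = 0.00165). Its probe sets fell by 2.68 and 2.29, both bright. The call held in all 15 alternatives that could be run, with differences from -3.13 to -0.97 and limma adjusted p from 4.24e-06 to 0.0234. With bare particles FBXL5 lay 0.28 above untreated arrays, with an error of 0.46. That error pools all 3 groups, whose SDs were 0.21 for untreated, 0.03 for bare particle and 1.18 for conjugate arrays.

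ACO1 codes for iron regulatory protein 1, which is an aconitase when it holds an iron-sulfur cluster. Its values were -0.22, -0.05 and -0.03 on untreated, -0.03, 0.07 and 0.10 on bare particle and -0.71, -0.42 and -0.77 on conjugate arrays. Conjugate arrays were again lowest, without overlap. The fall was 0.54 (error 0.15, limma adjusted p = 0.0163), and 0.82 level-centred (adjusted p = 0.00132). Middle probe sets 11743758_a_at and 11755357_s_at fell by 1.26 and 1.53 (adjusted p = 0.00376 and 0.00306), and by 1.45 and 1.71 level-centred. The dim 11764092_at rose by 1.18 (adjusted p = 0.0498) and was not called level-centred. The gene's call ended in quantile-normalized values (-0.10, adjusted p = 0.772), without _s_at and _x_at probe sets (-0.04, adjusted p = 0.893), with array weights (adjusted p = 0.0816), in a fit of only the groups compared (adjusted p = 0.0657), without untreated replicate 2 (-0.51, adjusted p = 0.0588) and without untreated replicate 3 (-0.50, adjusted p = 0.0546).

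By probe set, 17 of the 29 fell and 4 rose with the conjugate against untreated arrays, beside 23.7% falling and 24.9% rising of 49293 probe sets. The direction followed the level of the baseline. Of 12 bright probe sets 11 fell and none rose, of 10 middle ones 5 fell and 1 rose, and of 6 dim ones 3 rose and none fell. Level-centred, 9 of the 29 fell, which were 2 of TFRC, 2 of FBXL5, 2 of ACO1, 2 of SLC11A2 and 1 of STEAP3, and 1 rose, of FTL, beside 19.9% falling and 18.4% rising of all probe sets.

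**Figure D3:**
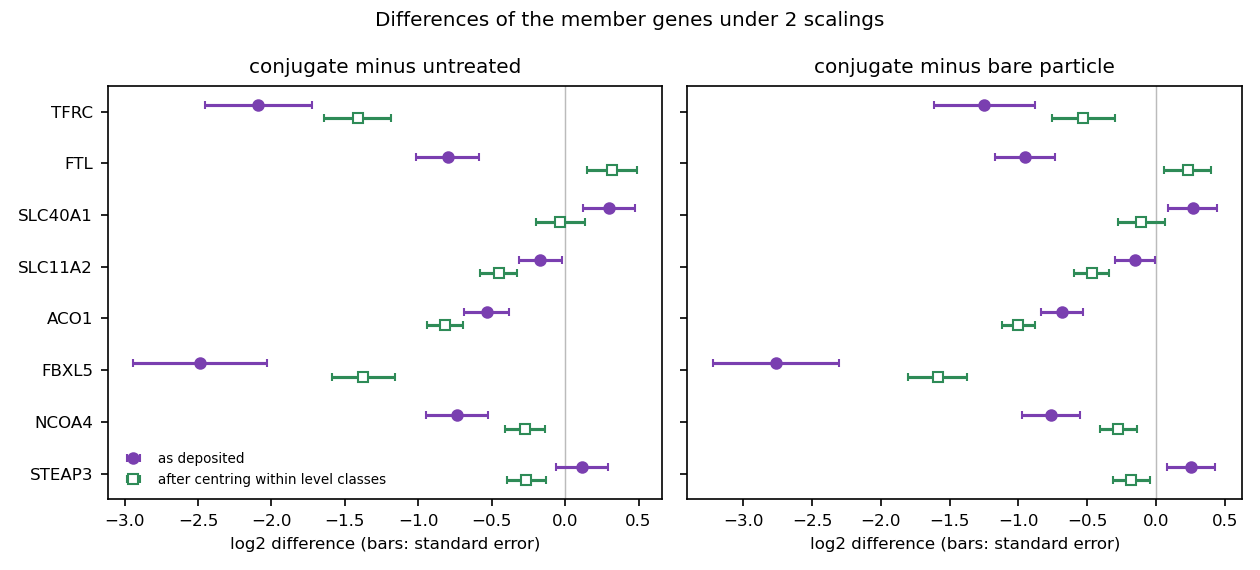
Log2 differences with standard errors (horizontal axis) of the 8 genes, conjugate minus untreated (left) and conjugate minus bare particle (right), as deposited (filled) and level-centred (open). TFRC, FBXL5, ACO1, NCOA4 and SLC11A2 stay below 0 in both panels, while FTL crosses from -0.80 to 0.32 on the left.

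Against bare particle arrays the same 5 genes fell with the conjugate and none rose, beside 29.1% of all genes falling and 43.2% rising. This comparison shares its conjugate arrays with the one above, and its bare particle arrays with the one that led to the choice. FBXL5 fell by 2.77 (error 0.46, limma adjusted p = 0.00124), FTL by 0.95 (error 0.22, adjusted p = 0.00405), NCOA4 by 0.76 (error 0.21, adjusted p = 0.00962) and ACO1 by 0.68 (error 0.15, adjusted p = 0.00393). All 3 conjugate values lay below the bare particle ones in these genes, in TFRC and in SLC11A2, which made 6 of 8, beside 30.5% of all genes. In SLC40A1 all 3 lay above, and the share of all genes for which this held is not given here. Its difference of 0.27 was not called (limma adjusted p = 0.19), in a comparison where 43.2% of all genes rose. Level-centred, 3 fell, FBXL5 (-1.59), ACO1 (adjusted p = 0.000341) and SLC11A2 (-0.47), beside 26.4% of all genes. By probe set, 17 of 29 fell and 4 rose, beside 28.3% and 36.3% of all. After level-centring 7 of them fell and none rose, and the matching share of all probe sets is not given here. Level-centred, FTL stood at 0.23, NCOA4 at -0.27, SLC40A1 at -0.11 and STEAP3 at -0.18, with no call.

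With bare particles against untreated arrays, no gene of the set passed limma, beside 0.0221% of all genes, and nothing is read from that count since TFRC in this comparison led to the choice. TFRC lay below on all 3 arrays, beside 21.5% of all genes. ACO1 and FBXL5 lay above on all 3, beside 12.4%, with differences of 0.15 and 0.28 and errors of 0.15 and 0.46. These errors pool the spread of all 3 groups, conjugate arrays included. The other genes differed by 0.15 (FTL), 0.03 (NCOA4), 0.03 (SLC40A1), -0.02 (SLC11A2) and -0.14 (STEAP3), and their values overlapped between the groups. TFRC differed most of the 8, at -0.84, and nothing is read from that or from its place below, since this value led to the choice. Among single probe sets, 11764275_s_at of SLC11A2 differed by 0.49 and 11722678_a_at of STEAP3 by -0.46.

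Over the 9 arrays the genes whose values ran most like those of TFRC were ARCN1 (Pearson r = 0.986), MEF2D (0.982), FAM168B (0.979), AMER2 (0.979) and PUM2 (0.979). These are descriptions over arrays that share the conjugate shift. ARCN1 read 0.25, 0.05 and -0.04 on untreated, -0.19, -0.14 and -0.24 on bare particle and -0.75, -1.10 and -0.39 on conjugate arrays, so its steps were smaller than those of TFRC. Within the set, r was 0.989 between FTL and FBXL5, 0.884 between TFRC and FBXL5, and -0.624 between TFRC and SLC40A1.

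Other genes of iron handling were taken from lists made by function, in which 83 of 92 genes were measured. With the conjugate 27 of the 83 fell and 23 rose against untreated arrays, with a median of -0.11, beside 25.1% of all genes falling, 33.1% rising and a median of 0.25. Level-centred, 19 fell and 19 rose, with a median of 0.019, beside 21.6%, 22.6% and 0.06. The counts of each list below stand against these same shares, and none is called particular to its list. The counts of 27 and 23 shrink without untreated replicate 3 to 13 and 11, without untreated replicate 2 to 18 and 13, and without conjugate replicate 1 to 16 and 14. In the same 3 cases the genes passing in all went from 10566 to 6524, 7064 and 7259. Without conjugate replicate 3 the counts grew to 36 falling and 31 rising, beside 14045 genes in all.

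Genes of mitochondrial iron and iron-sulfur clusters fell in 12 of 23 cases and rose in 2, with a median of -0.92 beside 0.25 over all genes. HSPA9, the chaperone of cluster assembly, fell by 1.95 (error 0.34, limma adjusted p = 0.00306), CISD1, an outer membrane cluster protein, by 1.71, and the assembly factor ISCA1 differed by -1.64 (adjusted p = 0.00431). CIAO3 and IBA57, both of cluster assembly, rose by 0.67 and 0.55. Level-centred, 6 fell and 4 rose, with a median of -0.13 beside 0.06, and with HSPA9 at -0.84, CISD1 at -1.25, ISCA1 at -0.96, CIAO3 at 0.48 and IBA57 at 0.81, all called.

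Haem genes rose in 6 and fell in 5 of 18 cases, with a median of -0.18, and level-centred 5 rose and 4 fell, with a median of -0.014. HMOX1, which breaks haem down and frees its iron, read -2.63, -2.60 and -2.80 on untreated, -0.62, -1.65 and -2.32 on bare particle and -0.17, -0.64 and 0.20 on conjugate arrays. All treated arrays lay above all untreated ones. HMOX1 rose by 2.47 with the conjugate (error 0.38, limma adjusted p = 0.00199; 3.62 level-centred), and its bare particle difference of 1.15 with an error of 0.38 was not called (adjusted p = 0.864). The HMOX1 repressor gene BACH1 rose by 0.88 (0.70 level-centred) and the haem transporter gene FLVCR2 by 0.72 (0.96 level-centred). ALAS1, the first enzyme of haem synthesis, fell by 2.09 (limma adjusted p = 0.00435; -1.31 level-centred), the haem exporter gene FLVCR1 by 1.501 (-1.69 level-centred) and the biliverdin reductase gene BLVRA by 1.35, the last with no call level-centred (-0.24).

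Of 13 other uptake and ferrireductase genes 6 rose and none fell (median 0.45). CUBN, an endocytic receptor, rose by 1.51 (limma adjusted p = 0.0041), LCN2, which binds siderophores, by 0.80 and the ferritin receptor gene SCARA5 by 0.95. Level-centred, 3 rose and none fell (median 0.19), and these were CUBN (1.32), LCN2 (0.61) and SCARA5 (0.62). Of 15 chaperone, export and regulation genes 6 rose and 5 fell, with a median of 0.40, and level-centred 4 rose and 5 fell, with a median of 0.019. CUL1, the scaffold of the ligase that FBXL5 serves, fell by 2.11 (error 0.42, limma adjusted p = 0.00449; -1.65 level-centred), and its partner SKP1 fell by 0.75 (-0.58 level-centred). The iron chaperone gene PCBP1 fell by 1.47, and by 0.36 level-centred, and NEO1, a co-receptor of the hepcidin pathway, by 0.77 (-0.53 level-centred). The mitochondrial ferritin gene FTMT rose by 1.03 (2.14 level-centred), the hemojuvelin gene HJV by 0.79 (0.46 level-centred) and the ferroxidase gene CP by 0.76, the last with no call level-centred (0.29).

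Of 4 other measured genes whose transcripts are known to carry an iron-responsive element, CDC42BPA fell by 0.92 (limma adjusted p = 0.00383), ALAS2 rose by 0.75 and CDC14A rose by 0.58, while EPAS1 stood at -0.17 with no call. Level-centred, CDC42BPA (-1.16) and ALAS2 (0.999) kept a call, and CDC14A (0.10) did not. Of 11 glutathione, ferroptosis and NRF2 genes 4 fell and 2 rose, with a median of -0.32, and level-centred 3 fell and 3 rose, with a median of 0.25. GCLC and GCLM, which make glutathione, fell by 1.31 and 1.30, and by 1.25 and 0.84 level-centred, and quantile normalization turned GCLM to 0.50. SRXN1, a sulfiredoxin gene, fell by 1.53, with no call level-centred (-0.42, limma adjusted p = 0.0806). SLC7A11, the cystine transporter gene, rose by 0.92 (1.17 level-centred). AIFM2, a ferroptosis suppressor gene, rose by 0.59, with no call level-centred (0.33, limma adjusted p = 0.0701).

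With bare particles 2 of the 83 other genes rose and none fell by limma, beside 0.0221% of all genes passing. They were SLC7A11 (1.71, error 0.19, adjusted p = 0.0233) and PIR, an iron-binding nuclear protein gene (2.90, error 0.19, adjusted p = 0.000647). PIR read -2.38, -2.80 and -2.98 on untreated, 0.40, 0.16 and 0.00 on bare particle and -2.42, -2.65 and -2.48 on conjugate arrays, so conjugate and untreated arrays overlapped as deposited. The conjugate difference of PIR was 0.20 with no call (limma adjusted p = 0.374), and 1.31 level-centred with a call (adjusted p = 0.00773). Both results were known when the lists were made, so nothing is read from the count of 2.

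**Figure D4:**
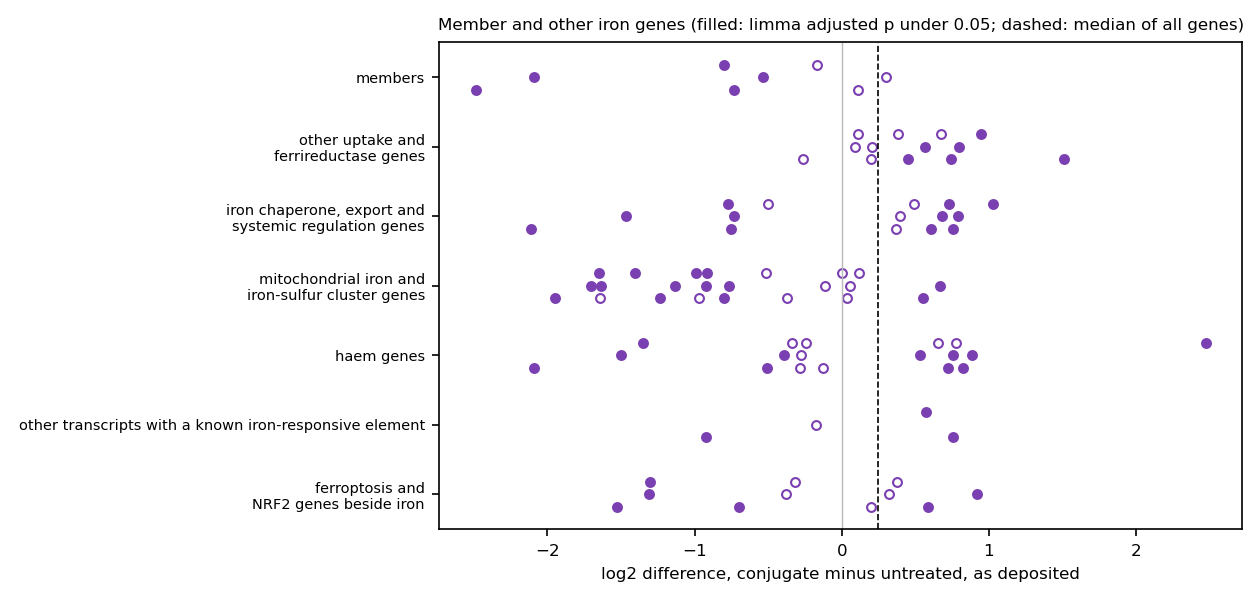
Log2 differences between conjugate and untreated arrays as deposited (horizontal axis) of each measured gene, by list, filled where limma adjusted p was under 0.05, with the median of all genes (0.25) dashed. Filled dots of the 10-gene set and most filled dots of the mitochondrial list lie below 0, and those of the other uptake list lie above.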

How the data were processed

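The values the authors deposited for 9 PrimeView arrays are on a log scale, taken as log2, and count from a baseline that differs by probe set. Per the labels' protocols, biotin-labelled cRNA was made from total RNA. The tool that summarized probes and any normalization are not given in the sources used here. An exact 0 on at least 1 array in 59.69% of 49395 probe sets shows the baseline.

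After 102 array controls were left out, 49293 probe sets were tested. By the annotation 44988 had 1 symbol, 1832 several and 2473 none. A gene's value is the mean over probe sets that carry its symbol alone. limma 3.58.1 (lmFit, eBayes, 2-sided) in R 4.3.3, with the data.table package (version 1.17.8), took all 9 arrays in one fit, with Benjamini-Hochberg adjustment over all genes or probe sets and calls at 0.05. Each error printed is the fit's standard error, which pools the spread of all 3 groups in every comparison. Classes of level came from the binary step of values above -0.1 (22 places dim, 21 middle, 20 bright, 1143 probe sets unclassed). The fit was tested on simulated data. No pair of arrays held identical values.

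The members and lists were chosen with earlier results of these data known. All members are named, with up to 3 rising and 3 falling genes of each list by smallest adjusted p with the conjugate, those called with bare particles, HMOX1, SLC7A11, and the 5 genes most correlated with TFRC. SKP1 and EPAS1 were added after their values were seen. Alternatives were other scalings, fits, spreads and choices of probe sets, and leaving out each array. Deviations from the group mean had r from -0.03 to 0.23 over 9 pairs of arrays with one replicate number. Over 18 pairs with different numbers r ran from -0.22 to 0.18. These ranges overlap, and the numbers were not taken as pairs in the main fit.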

Additional observations from a re-analysis of the deposited data

How the results depend on the processing

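For the conjugate against untreated arrays, 10566 genes passed, with 6439 in a fit of only the groups compared, 6699 with array weights and 1928 after quantile normalization. Of the 8 iron genes 5 passed, with 3, 4 and 2 under the same 3 settings. Without _s_at and _x_at probe sets, which leaves FTL, FBXL5 and NCOA4 without a value, 1 passed, beside 9134 genes in all. Without dim probe sets 8 passed, of which 7 fell and 1 rose, beside 8731 genes in all. The 1 that rose was SLC40A1 (0.56, limma adjusted p = 0.0336). Settings that leave out probe sets test fewer genes than the main fit, since genes with no other probe set drop out. Their number is not given here, so no share is read from these counts. Of the other iron genes 50 passed, with 28 in the fit of only the groups compared and 14 after quantile normalization. For bare particles 4 genes passed, with 61, 714 and 2792 under those 3 settings, 0 with a trended robust spread and 2 without _s_at and _x_at probe sets. There the count of iron genes was 0, and 1 under each of those 3. That gene was TFRC, chosen on this comparison, so nothing is read from the count. The other iron genes went from 2 to 4, 7 and 20, to 0 with the trended spread and to 1 without _s_at and _x_at probe sets. For the conjugate against bare particles, 5 iron genes passed, beside 13114 genes in all. Level-centred 3 passed (10391 in all), after quantile normalization 2 (9257 in all) and without _s_at and _x_at probe sets 1 (11800 in all). Median centring gave 6 (12298 in all), as did leaving out dim probe sets (10685 in all).

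Leaving out 1 array gave 6524 to 14045 genes for the conjugate against untreated arrays, with the lowest without untreated replicate 3, and 2 to 15 for bare particles, with the highest without it. The iron genes stayed at 4 to 5 and at 0. For the conjugate against bare particles they stayed at 5 to 6, beside 10770 to 15048 genes in all. The other iron genes ranged from 24 to 67, 1 to 2 and 53 to 73. The replicate block changed no call of an iron gene, with 5 passing, 0 with bare particles and 5 against bare particles, and 10443 genes in all for the conjugate against untreated arrays.

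Some differences changed sign. For the conjugate against untreated arrays, STEAP3 went to -0.051 with median centring, -0.28 with quantile normalization, -0.26 level-centred and -0.59 without dim probe sets, GCLM to 0.50 with quantile normalization, FTL to 0.32 and SLC40A1 to -0.032 level-centred, and SLC11A2 to 0.11 without _s_at and _x_at probe sets. Against bare particles, STEAP3 went to -0.11, -0.18 and -0.13 (quantile, level-centred, without dim), FTL to 0.23 and SLC40A1 to -0.11 level-centred, and SLC11A2 to 0.23 without _s_at and _x_at and 0.062 by the median of probe sets. For bare particles, SLC11A2 went to 0.024 with quantile normalization and 0.016 level-centred, NCOA4 to -0.0014 level-centred, and STEAP3 to 0.033 by the median. Leaving out 1 array there gave -0.10 to 0.047 for SLC11A2, -0.036 to 0.091 for NCOA4 and -0.12 to 0.15 for SLC40A1. The cause was not tested. The number of arrays limits the precision, and without absolute signal the distance of dim probe sets from background is unknown.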
